A study of Mus musculus with 2 samples.

Results

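The miR-103 and miR-107 family of the mouse consists of 3 hairpin genes, Mir103-1, Mir103-2 and Mir107, and all 3 were found by their Ensembl identifiers among the 2202 microRNA genes counted. They were profiled in the adrenal gland, with 1 microRNA library from each of 2 B6CASTF1/J males at an age of 36 days. This strain is an F1 hybrid with a C57BL/6J and a CAST/EiJ parent. The animals have separate numbers in the labels but share a donor record, neither carries a named allele or treatment, and there is no second group. Differences between the libraries therefore compare these 2 libraries only. The sense strand of microRNA genes received 4494857 reads in replicate 1 and 2078824 in replicate 2, or 36.6% and 20.1% of all reads. Multimapping reads were given to no gene and made up 29.8% of replicate 1 and 21.5% of replicate 2. At 3664429 and 2220642 reads, they were fewer than the sense gene counts in replicate 1 and more than them in replicate 2. Unmapped reads made up 26.4% of replicate 1 and 51.9% of replicate 2. No microRNA among the markers used defines the adrenal cortex, so the tissue label could not be checked against one.

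MicroRNAs are cut from hairpin precursors into short mature strands, the 5p and 3p arms, and find their targets mainly through the seed, bases 2 to 8 of the mature strand. The hairpins of miR-103 and miR-107 lie inside genes for pantothenate kinases, the enzymes of the first step from vitamin B5 to coenzyme A, the carrier of acetyl groups in fatty acid and sterol synthesis. In mice the family is known for limiting insulin sensitivity in liver and fat, with caveolin-1 among its targets. The adrenal cortex makes steroid hormones from cholesterol, and the medulla makes catecholamines.

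The hairpins are shown because the measured counts depend on where they differ. Capitals mark the 3p arm, and the sequences are from RefSeq on GRCm38.p6, the assembly of mm10.
Mir103-1: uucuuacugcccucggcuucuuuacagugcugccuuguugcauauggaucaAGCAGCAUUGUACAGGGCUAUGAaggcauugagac
Mir103-2: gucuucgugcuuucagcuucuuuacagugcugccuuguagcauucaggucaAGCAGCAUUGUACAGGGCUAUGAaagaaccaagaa
Mir107: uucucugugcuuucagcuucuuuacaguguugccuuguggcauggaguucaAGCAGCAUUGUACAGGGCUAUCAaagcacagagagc
Aligned end to end, the Mir103-2 and Mir107 hairpins were identical in 73 of 87 columns (83.9%). Mir103-1 was identical to Mir103-2 in 69 of 86 columns (80.2%) and to Mir107 in 70 of 87 (80.5%).

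The mature arms are nearly the same in all 3 genes. In the lines that follow, capitals mark the seed.
miR-103-3p: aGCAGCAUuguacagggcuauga
miR-107-3p: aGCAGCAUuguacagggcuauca
miR-103-1-5p: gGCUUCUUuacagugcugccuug
miR-103-2-5p: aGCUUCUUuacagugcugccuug
miR-107-5p: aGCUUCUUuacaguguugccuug
Mir103-1 and Mir103-2 carry the same 3p arm. Counting positions from 1 at the 5′ end, miR-103-3p differs from miR-107-3p by G22C alone. Among the 5p arms, miR-103-1-5p differs from miR-103-2-5p by G1A, and miR-103-2-5p from miR-107-5p by C16U. The 3p seed GCAGCAU occurred in 2 of 1679 mature microRNA names of the RefSeq table, miR-103-3p and miR-107-3p, which come from these 3 genes.

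A read that starts at the first base of a 3p arm must be long to name its gene. The first 21 bases were held by all 3 hairpins among the 2202 searched. With 22 bases Mir107 stood alone, while Mir103-1 and Mir103-2 still shared the same 24 bases and separated only at 25, which is 2 bases past the end of the 23-base arm. The 5p arms separated by base 16. Of 1580 mature arms found in the hairpins of counted genes, 130 were held whole by another hairpin, among them miR-103-3p. Another 6 separated only within their last 2 bases, among them miR-107-3p. The counts are per hairpin, so the arm behind each read is not known here. The rest of the genome was not searched for these sequences, and the lengths of the reads were not analysed here.

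**Figure D1:**
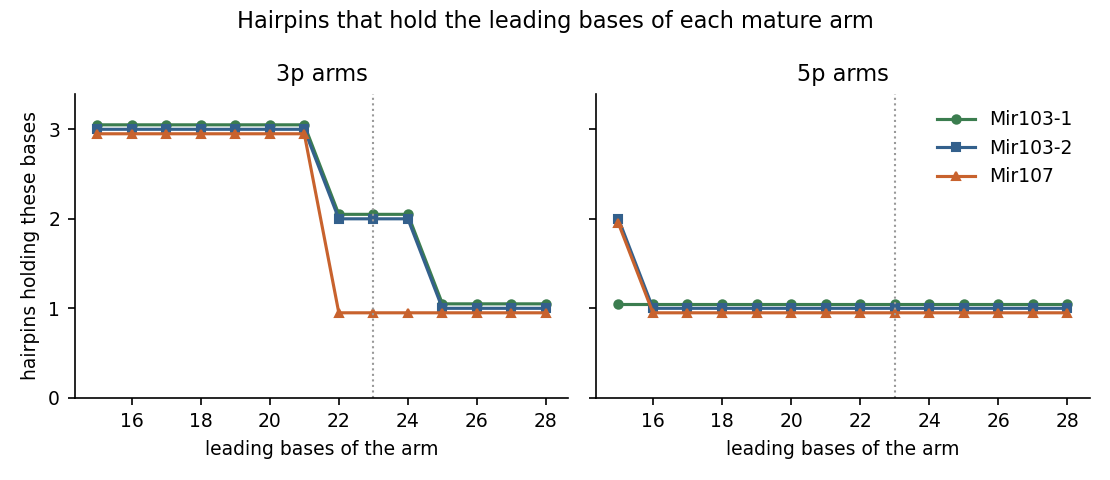
Number of the 2202 annotated hairpins (vertical axis) that hold the leading bases of each mature arm, for 15 to 28 leading bases (horizontal axis), with the 3p arms on the left and the 5p arms on the right. The dotted line marks the arm end at 23 bases, and the lines are offset slightly so that all 3 can be seen. Mir107 stands alone from 22 bases of its 3p arm, the miR-103 genes only from 25.

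All 3 hairpins lay on the strand of their host, in intron 5 of the 6 introns of the coding transcript with the most introns. Mir107 (ENSMUSG00000065594.1) is at chr19:34820687-34820773 on the minus strand of mm10, in an intron of Pank1 that is 7282 bases long. Mir103-2 (ENSMUSG00000065563.1) is at chr2:131288052-131288137 on the plus strand, in an intron of Pank2 of 5801 bases. Mir103-1 (ENSMUSG00000065553.1) is at chr11:35782396-35782481 on the plus strand, in an intron of Pank3 of 1740 bases. Each hairpin lay closer to the exon before it than to the one after it, with 326 bases before and 6869 after for Mir107, 454 and 5261 for Mir103-2, and 688 and 966 for Mir103-1. No exon of any annotated transcript of the hosts overlapped a hairpin. On the strand of the hosts, no other counted microRNA gene was assigned to an intron of theirs, and the opposite strand was not searched. Messenger RNA of the hosts was not measured.

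**Figure D2:**
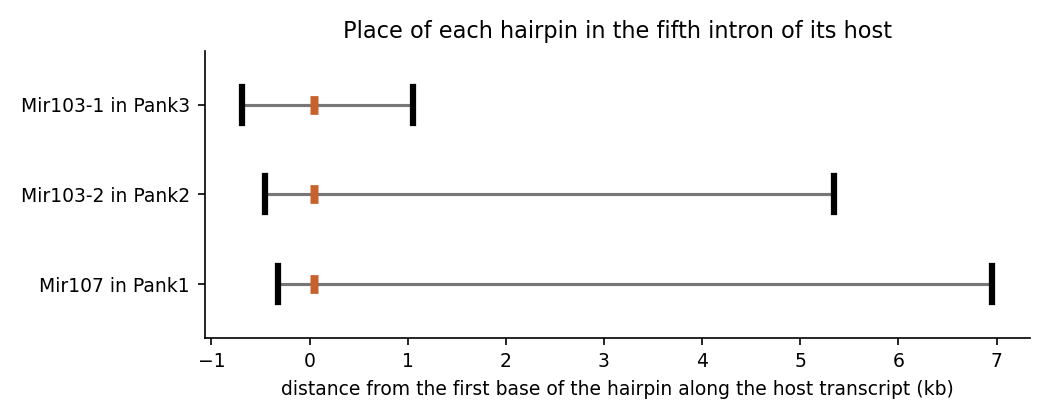
Intron 5 of each pantothenate kinase host drawn to scale (grey line), with its bounding exon edges (black bars) and the hairpin (orange block), as distance in kb from the first base of the hairpin. The hairpins sit 326, 454 and 688 bases from the exon before them, in introns of 7282, 5801 and 1740 bases.

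Mir107 held nearly all counts of the family. Levels are given in CPM, sense counts divided by the library's sum over all microRNA genes and multiplied by 1000000. Mir107 had 2177 counts in replicate 1 and 4751 in replicate 2, or 484 CPM (exact Clopper-Pearson 95% interval 464 to 505) and 2285 CPM (2221 to 2351). Its mean was 1385 ± 1274 CPM (SD, n = 2), with replicate 2 the high library and no overlap of the counting intervals. It stood at place 113 of all genes in replicate 1 and place 55 in replicate 2.

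Mir103-2, the copy in Pank2, had 39 and 62 counts in replicates 1 and 2, or 8.68 CPM (6.17 to 11.9) and 29.8 CPM (22.9 to 38.2). Its mean was 19.3 ± 14.95 CPM (SD, n = 2), again with replicate 2 the high library. Mir103-1, the copy in Pank3, had 7 and 11 counts, or 1.56 CPM (0.626 to 3.21) and 5.29 CPM (2.64 to 9.47), with a mean of 3.42 ± 2.64 CPM (SD, n = 2). Its counting intervals overlapped between the libraries. These intervals hold counting error alone, because molecules copied by PCR could not be told from independent ones.

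**Figure D3:**
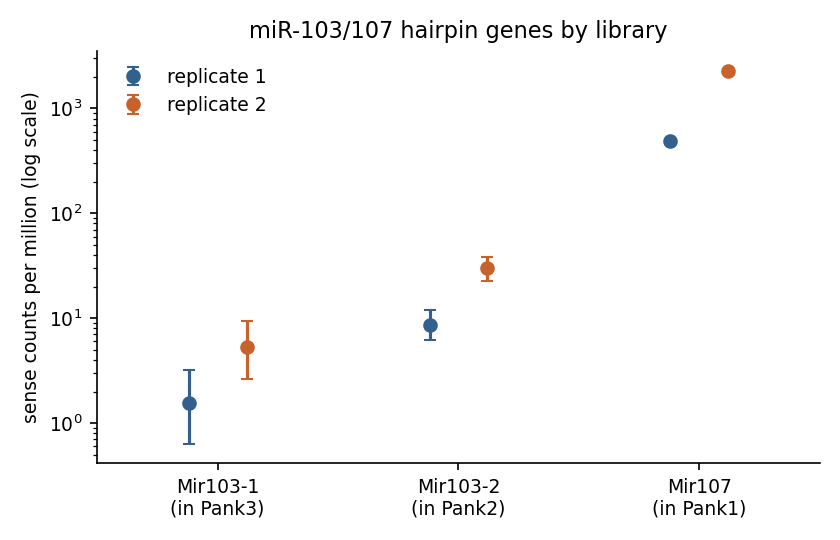
Sense CPM (log scale) of the 3 hairpin genes in replicate 1 (blue) and replicate 2 (orange), with exact 95% counting intervals. The order Mir107, Mir103-2, Mir103-1 is the same in both libraries, and each gene is higher in replicate 2.

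The order of the 3 genes was the same in both libraries, and the lower value of each gene lay above the higher value of the next. The counting intervals of Mir103-2 in replicate 1 and Mir103-1 in replicate 2 overlapped. Mir107 took 97.9% of the family's counts in replicate 1 (97.2 to 98.5) and 98.5% in replicate 2 (98.1 to 98.8). Mir107 exceeded Mir103-2 by 55.8-fold in replicate 1 (exact 95% interval 40.7 to 78.7) and by 76.6-fold in replicate 2 (59.7 to 100.1), intervals that overlap. Mir103-2 exceeded Mir103-1 by 5.57-fold (2.46 to 14.8) and 5.64-fold (2.94 to 11.9). The 2 miR-103 genes thus stood in nearly the same ratio to each other in both libraries, within wide counting intervals. With 2 values against 2, an exact permutation test cannot reach 0.05, so these steps were set against the counting intervals and the spread between libraries. Because reads of miR-103-3p up to 24 bases long cannot name their gene, these values do not give the amount of mature miR-103 relative to miR-107.

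No antisense read was counted for any of the 3 genes, and their strand-blind counts equalled their sense counts in both libraries. Among the genes with a mature arm held whole by another hairpin, Mir103-2 stood at place 43 in replicate 1 and 28 in replicate 2, and Mir103-1 at place 47 by mean CPM. In that class 17 genes reached 100 CPM, led by Mirlet7f-2 at 4346 ± 156 CPM (SD, n = 2), Mirlet7c-2 at 1583 ± 157 CPM and Mir16-1 at 1446 ± 1071 CPM.

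Mir107 and Mir103-2 were both higher in replicate 2. For ratios, the libraries were scaled with TMM, a factor that centres the bulk of genes, and a two-sided exact binomial test compared the counts of each gene with the ratio of scaled library sizes. The test ran on the 333 genes that reached 10 counts in each library, with Benjamini-Hochberg adjustment over all 333. Mir107 was 4.15-fold higher in replicate 2 (counting interval 3.94 to 4.37), a log2 ratio of 2.05, and its adjusted p was too small to be represented. Mir103-2 was 3.02-fold higher (1.99 to 4.64), a log2 ratio of 1.60 (adjusted p = 8.08e-08, exact binomial test). Mir103-1 did not reach 10 counts in both libraries and was not tested. Its log2 ratio was 1.58, with a counting interval of 0.08 to 3.18. With a minimum of 5 counts it was called higher in replicate 2 (adjusted p = 0.0390, exact binomial test), where 69.9% of 386 genes were called in either direction and 33.4% as higher in replicate 2.

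A call by this test was common. It takes counting noise as the only error and found 78.1% of the genes to differ. Of all genes tested, 39.3% were called with the higher value in replicate 2 and 38.7% in replicate 1. The edgeR exact test, with a dispersion estimated from the same 2 libraries, called 1.8% of the genes and neither member, with an adjusted p of 0.987 for both and an unadjusted p of 0.0727 for Mir107 and 0.179 for Mir103-2. By size alone, 4.5% of the genes tested were more than 4-fold higher in replicate 2, and Mir107 was the last of those 15 genes. The median log2 ratio of all genes tested was 0.01.

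Other measures also differed between the libraries, in both directions. The pancreas acinar genes Mir216a, Mir216b and Mir217 had 0 counts in replicate 1, which allows up to 3 counts or 0.667 CPM, and 677 counts in all in replicate 2. The 5 epithelial miR-200 genes summed to 64.7 and 3576 CPM in replicates 1 and 2. The 3 brown adipose genes summed to 267 and 3066 CPM, of which Mir193b alone gave 256 and 3032 CPM. The liver gene Mir122 stood at 1383 and 2842 CPM. The sum of the 3 erythroid genes went the other way, from 15841 to 1091 CPM. Mir451a and Mir144 had log2 ratios of -4.18 and -3.42, while Mir486 had -0.33 and was not called. The neuroendocrine sum was 48802 and 54157 CPM, with log2 ratios of 0.04 for Mir375, -0.69 for Mir7-1, -0.40 for Mir7-2 and -1.21 for Mir7b. The endothelial sum was 74842 and 64797 CPM, with -0.39 for Mir126a and -0.22 for Mir126b. Smooth muscle and pericyte genes summed to 46611 and 30221 CPM, with -0.97 for Mir143 but 1.17 for Mir145a. The leukocyte sum was 3219 and 3899 CPM, with 0.26 for Mir146 and 0.40 for Mir150. The other leukocyte genes had lower values in replicate 2, with -0.52 for Mir142, -0.56 for Mir155 and -0.56 for Mir223. Of 5 striated muscle genes 4 were at 0 in both libraries, as were 5 of 6 neuronal genes. The genes at 0 are numbered copies of miR-1a, miR-133a, miR-9 or miR-124a. Reads that fit several copies are multimapping and given to no gene, so a 0 here does not show absence. The remaining muscle gene, Mir206, had 5 and 11 counts in replicates 1 and 2. The part of these tissues, of sequencing depth and of the shares of multimapping and unmapped reads in the ratios of the family was not tested. In whole-gland RNA, more cells of a type and more RNA per cell cannot be told apart.

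**Figure D4:**
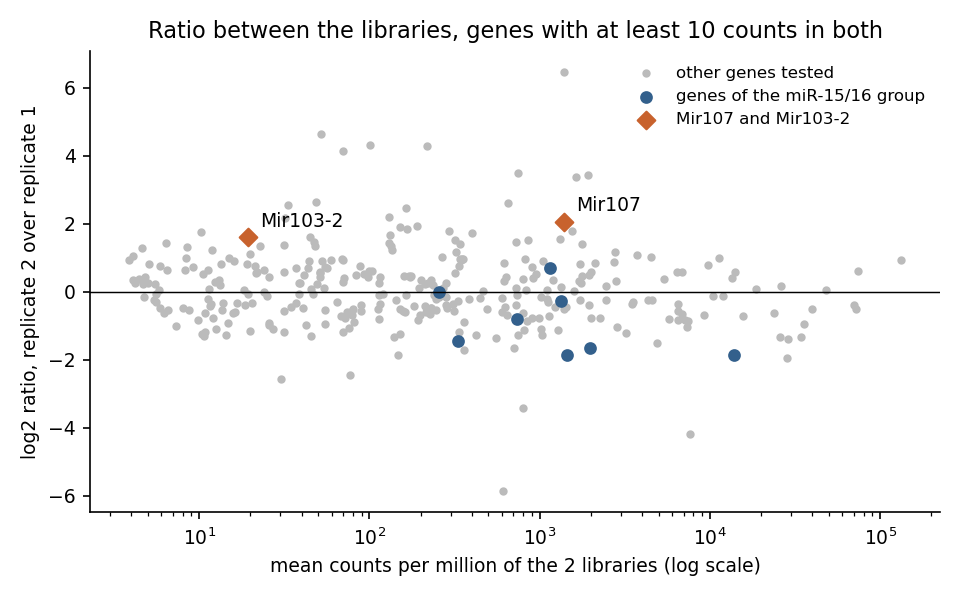
Log2 ratio of replicate 2 over replicate 1 after TMM scaling (vertical axis) against the mean CPM of the 2 libraries (log scale) for the 333 genes tested. Mir107 (2.05) and Mir103-2 (1.60) are orange diamonds, the tested genes of the miR-15/16 group are blue, and all but 1 of these have ratios below 0.

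The miR-15/16 group, known for holding back cell cycle genes, is the nearest relative by seed. The mature strands of 4 of its genes are shown because the 7 letters that open miR-103-3p and miR-107-3p, AGCAGCA, are the seed of these strands, shifted by 1 base. Capitals mark the seed.
miR-16-5p: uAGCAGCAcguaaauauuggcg
miR-15a-5p: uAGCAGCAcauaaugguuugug
miR-195a-5p: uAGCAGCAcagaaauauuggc
miR-322-5p: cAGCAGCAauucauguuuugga
The seed AGCAGCA occurred in 10 mature names from 11 genes of the RefSeq table. The 14 genes listed for the group are these 11 with Mir503, Mir497b and Mir1907, which have no mature strand with that seed in the table. Of the 14, 9 had any count and 8 were tested. Of these 1 was higher in replicate 2, 6 were higher in replicate 1 and 1 was not called, with a median log2 ratio of -1.13. Among all 333 genes tested, 78.1% were called, 39.3% as higher in replicate 2 and 38.7% as higher in replicate 1. The edgeR exact test called none of the 8, with an adjusted p of 0.987 or more.

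Mir322, the mouse counterpart of human miR-424 on the X chromosome, was the highest of the group at 20951 and 6610 CPM in replicates 1 and 2 (log2 ratio -1.85). Mir195a had 2893 and 1032 CPM (-1.67) and its cluster neighbour Mir497 893 and 580 CPM (-0.81). Mir16-1 had 2203 and 688 CPM (-1.86) and Mir16-2 465 and 194 CPM (-1.45), a pair of loci with the same mature 5p arm, as for miR-103-3p. All 5 of these genes were called higher in replicate 1, as was Mir15a, whereas Mir107 was called higher in replicate 2.
Mir15b, in an intron of Smc4, was the gene of the group called higher in replicate 2, with 807 and 1488 CPM (0.70). Mir16-2, also in an intron of Smc4, was called higher in replicate 1 (-1.45). Mir15a, beside Mir16-1, had 1376 and 1282 CPM (-0.29), and Mir503, beside Mir322, 243 and 272 CPM (-0.02, not called). Mir497b had 1 count in replicate 1, and Mir195b, Mir1907, Mir6342, Mir6353 and Mir6419 had none in either library.
In replicate 1, Mir107 at 484 CPM lay near Mir16-2, and Mir322, Mir195a, Mir16-1, Mir15a, Mir497 and Mir15b were higher. In replicate 2, Mir107 at 2285 CPM was above every gene of the group other than Mir322. Reads that fit both Mir16-1 and Mir16-2 are given to no gene. The order of these genes therefore does not compare mature miR-107 with mature miR-16.

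**Figure D5:**
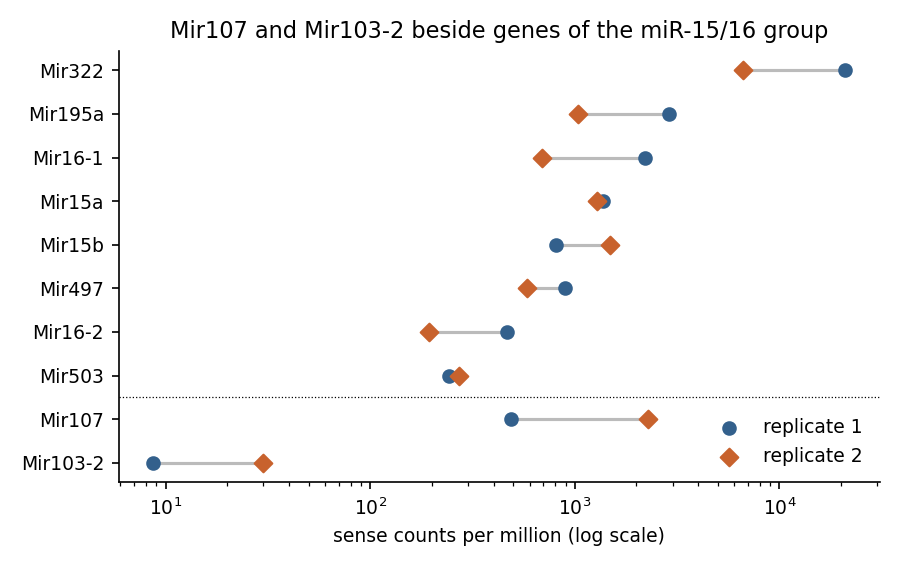
Sense CPM (log scale) of Mir107, Mir103-2 and the 8 tested genes of the miR-15/16 group, with replicate 1 as blue circles and replicate 2 as orange diamonds. Mir107 and Mir103-2 shift to the right in replicate 2, while Mir322, Mir195a and Mir16-1 shift to the left.

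The 3 genes belong to a class of 772 microRNA genes inside introns of protein-coding genes on the same strand. Mir107 was at place 40 of this class in replicate 1 and at place 22 in replicate 2. By mean CPM Mir103-2 was at place 99 and Mir103-1 at place 133. The class was led by Mir378a, in Ppargc1b, at 74155 ± 28593 CPM (SD, n = 2), by Mirlet7g in Wdr82 and by Mir126a in Egfl7. Of its 122 tested genes, 46 were higher in replicate 2, 57 were higher in replicate 1 and 19 were not called, with a median log2 ratio of -0.16. Of the genes with a shared mature arm, 42 were tested, with 11 higher in replicate 2, 19 higher in replicate 1, 12 not called and a median of -0.38. For all 333 genes tested, 39.3% were higher in replicate 2 and 38.7% higher in replicate 1, with a median of 0.01. Mir107 and Mir103-2 had ratios well above the middle of all genes tested. Both ratios were also above the median of the intronic class, and that of Mir103-2 was above the median of the genes with a shared mature arm.

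A list of 28 microRNAs studied in insulin action and lipid metabolism, the field in which miR-103 and miR-107 are best known, showed no common direction. Of its 26 tested genes, 12 were higher in replicate 2, 11 were higher in replicate 1 and 3 were not called, with a median log2 ratio of -0.05. The edgeR exact test called none of them. Binomial calls over the whole set of 333 genes were also split about evenly, 39.3% toward replicate 2 and 38.7% toward replicate 1. An even split was therefore not particular to this list. Mir33, in an intron of the sterol regulator Srebf2, had 32.3 and 19.2 CPM in replicates 1 and 2, at log2 ratio -0.93. Mir802, known from hepatic insulin resistance in obese mice, had 1 and 344 counts and was not tested. The 3 highest genes of the list were Mir378a, Mir126a and Mir375, at log2 ratios of 0.62, -0.39 and 0.04.

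The genes most like Mir107 by their levels in both libraries were Mir34c, Mir132 and Mir29c. Likeness was the distance between log2 CPM values over the 2 libraries. Mir34c, of the p53-linked miR-34 family, had 605 and 2029 CPM (distance 0.36), and Mir132, known as a target of the cAMP-responsive factor CREB, had 629 and 2465 CPM (0.39). Mir29c, known for holding back collagen genes, was farther off at 670 and 1410 CPM (0.84). The genes nearest to Mir103-2 were Mir293, Mir292 and Mir669l, at distances of 0.42, 0.45 and 0.52. Mir293 had 11.6 and 28.4 CPM, Mir292 11.6 and 33.7 CPM, both from a cluster known in embryonic stem cells, and Mir669l, in an intron of Sfmbt2, 10.2 and 21.6 CPM. Over 2 libraries such likeness rests on the level and on a single difference.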

How the data were processed

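The authors deposited raw read counts per microRNA gene for each library, strand-blind and for each strand, with mm10 as assembly and GENCODE M21 as annotation, as the files' accompanying text states. Aligner and counter: not given in the sources used here. The strand column taken as sense, set by its position, held more gene counts than the other strand column in both libraries. Library sizes hold no reads without a gene (63.4% and 79.9% of reads). Symbols, coordinates and introns came from GENCODE M21, mature sequences from RefSeq (968 of 2202 genes matched).

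CPM, TMM factors over genes reaching 10 counts in each library, exact binomial tests and edgeR exact tests were computed with R 4.3.3, edgeR 4.0.16, DESeq2 1.42.0 (size factors as an alternative) and Python 3.11.15 with SciPy 1.17.1. On simulated counts of 342 genes with counting noise only, the binomial test between the 2 libraries called all 100 genes with a 4-fold change, 82 of 100 with a 1.4-fold change and 3 of 142 without change.

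The members, lists and tests were chosen with earlier results of these data known. Named genes were the members, the 3 nearest by level to each tested member, the miR-15/16 group and the 3 highest of each other list. Mir33 and Mir802 were chosen after their values were seen. The labels number the libraries as separate biological replicates but give both the same donor record.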

Additional observations from a re-analysis of the deposited data

How the results depend on the processing

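Mir107 and Mir103-2 were higher in replicate 2 under every alternative in which they were measured, with log2 ratios of 1.88 to 2.24 for Mir107 over 10 alternatives and 1.43 to 1.78 for Mir103-2 over 9. With the edgeR exact test their log2 ratios of 2.05 and 1.59 were no longer called, and the genes called fell from 260 to 6, of which 4 were higher in replicate 2 against 131 before. That test called 17 genes at an unadjusted p under 0.05. With a minimum of 5 counts Mir103-1 was tested and called, at a log2 ratio of 1.53 (adjusted p = 0.0390, exact binomial test, 69.9% of 386 genes called), and without a minimum it was not (1.41, adjusted p = 0.116). With 1 library alone the levels ranged from 484 to 2285 CPM for Mir107, 8.68 to 29.8 CPM for Mir103-2 and 1.56 to 5.29 CPM for Mir103-1. Scaled to all reads in place of gene counts, the mean levels per 1000000 were 319, 4.59 and 0.818. Library size alone moved the split of calls from 131 higher in replicate 2 and 129 lower to 149 and 112. The GC correction was added after seeing the data and gave 2.14 for Mir107 and 1.73 for Mir103-2. A minimum of 50 counts left both miR-103 genes untested. No paired analysis was possible because the libraries form a single group. Depth limits Mir103-1, which rests on 18 reads in all.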
